A study of Mus musculus with 12 samples.

Results

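Among 6 dentate gyrus libraries from mice that had received an AAV9 vector, 3 held Bdnf, the gene of brain-derived neurotrophic factor, at 100 CPM or more, and 3 held it below that level. CPM is a gene's read count scaled to a common library total. The 3 high-Bdnf libraries were GFP M2, GFP F and Fst F. The 3 low-Bdnf libraries were GFP M1, Fst M1 and Fst M2. They are 6 of the 12 libraries of the series. The split was chosen by the measured Bdnf level and not by a label, so every difference between the high-Bdnf and low-Bdnf libraries below is a description of these 6 libraries and carries no p-value. The lowest high-Bdnf library, GFP M2, stood at 125 CPM and the highest low-Bdnf library, Fst M2, at 76.1 CPM.

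All libraries came from the dentate gyrus, the part of the hippocampus made mostly of granule cells, of C57BL/6 mice, and were measured by bulk RNA sequencing. The GFP vector group (M1, M2 and F) was a knockout of the follistatin gene Fst given AAV9-CB::GFP, a viral vector carrying green fluorescent protein. The Fst vector group (M1, M2 and F) is labelled OE, for which the labels state no genotype, with AAV9-CB::Fst. The other 6 libraries, 3 wild type (WT) and 3 knockout (KO), have labels that name no vector, are called untreated here and were deposited in a separate table, so that a level set beside them can also differ by the table. M and F in a library's name are the sexes in its title. For 4 untreated libraries the description gives the other sex, and levels of Xist and the Y-linked gene Ddx3y went with the titles in all 12. The labels give no age, vector dose or time after delivery, and they spell out neither OE nor CB. Whether a library holds 1 mouse or a pool is open in the design text, so p-values here measure the spread between libraries.

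Bdnf is a secreted growth factor that neurons make and release in response to electrical activity and that signals through the receptor TrkB. In granule cells, strong or prolonged activity is known to raise a group of secreted products late, among them Bdnf, the enkephalin precursor Penk, the AMPA receptor clustering protein Nptx2 and the activin subunit Inhba, and to lower the calcium buffer Calb1. A separate and faster wave, the immediate-early genes such as Fos, Egr1 and Npas4, rises within minutes and decays again. No recording of activity or behaviour was used here, so the libraries are called by their Bdnf level.

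Counts are per gene and do not tell which of the Bdnf start sites was used. Activity acts on Bdnf in part through the cyclic AMP response element (CRE), and 1 of the 7 Bdnf promoter windows in RefSeq (GRCm38.p6) held a CRE half-site. That window is shown because it is the only one of Bdnf with any of the motifs searched. It lies on the plus strand of chromosome 2, at chr2:109692186-109692485, and runs from 250 bases before to 50 bases after a start. The capitals mark the half-site, which begins 35 bases before the start.

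Bdnf promoter window: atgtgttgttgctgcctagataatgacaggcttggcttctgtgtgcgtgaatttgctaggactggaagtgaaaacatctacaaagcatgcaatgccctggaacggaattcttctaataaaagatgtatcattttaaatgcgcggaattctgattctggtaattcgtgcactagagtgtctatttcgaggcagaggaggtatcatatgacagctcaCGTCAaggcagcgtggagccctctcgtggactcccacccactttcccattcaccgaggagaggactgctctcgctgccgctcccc

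The motifs searched on both strands were the full CRE TGACGTCA, the AP-1 site TGACTCA or TGAGTCA, and the CRE half-site TGACG or CGTCA, which the full CRE contains. They were present in 1.79%, 5.20% and 20.8% of 32851 RefSeq promoter windows. Of the 22 genes given as markers or with the largest differences, 12 had an entry, with 24 windows, and the half-site was in 2 of them, those of Bdnf and Actl10. No window of these genes held the full CRE or the AP-1 site, which says only that these letters are not in these windows.

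Library totals ran from 8081824 to 11331337 counts, and the floor of 3 counts equals 0.265 to 0.371 CPM. The targeted gene matched the labels: Fst stood at 166 to 204 CPM in the Fst vector libraries, at 0 to 0.0974 CPM in the GFP vector libraries, at 0.203 to 0.428 CPM in KO and at 3.54 to 4.50 CPM in WT. Prox1, the transcription factor that defines granule cells, was at 324, 367 and 328 CPM in GFP M2, GFP F and Fst F. It was at 360.2, 226 and 294 CPM in GFP M1, Fst M1 and Fst M2, beside 407 to 457 CPM untreated. In the same order, Dsp, another granule cell marker, was at 102, 98.3 and 34.2 CPM against 288, 75.0 and 56.2 CPM, beside 220 to 266 CPM untreated. C1ql2 was at 779, 618 and 678 CPM against 712, 813 and 572 CPM, beside 453 to 568 CPM untreated. These markers were thus present in both sets, but outside the untreated range in every vector library. Calb1 is given below. Mitochondrially encoded ribosomal RNA made up 0.563 to 0.596% of counts in GFP M2, Fst F and Fst M2 and 0.00862 to 0.0115% in the other 3 vector libraries, so it did not follow the Bdnf split. Sex did in part: both female vector libraries were in the high-Bdnf set, and 1 of the 4 male ones.

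The marker genes set the high-Bdnf libraries apart from both the low-Bdnf and the untreated libraries. Bdnf itself, at chr2:109674700-109727007 (GRCm38, as are all positions of genes here), was at 125, 208 and 192 CPM in GFP M2, GFP F and Fst F, at 73.4, 75.6 and 76.1 CPM in GFP M1, Fst M1 and Fst M2, and at 54.6 to 72.7 CPM in the untreated libraries. The low-Bdnf libraries thus lay just above the untreated range, and the libraries were selected on this gene. Penk (chr4:4133531-4138819), the precursor of the enkephalin opioid peptides, was at 252, 479 and 519 CPM in the high-Bdnf libraries, in the same order, and at 22.4, 58.5 and 52.6 CPM in the low-Bdnf ones. Its difference was 3.23 ± 0.44 (log2, high minus low, ± SE of the edgeR fit), the largest of the 5 markers. All 6 vector libraries lay above the untreated range for Penk, which was 9.002 to 20.7 CPM.

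Nptx2 (chr5:144545902-144557478), a secreted pentraxin that gathers AMPA receptors at synapses, was at 70.4, 223 and 131 CPM in the high-Bdnf libraries and 24.9, 26.7 and 16.5 CPM in the low-Bdnf libraries, a difference of 2.64 ± 0.46. Inhba (chr13:16011851-16031621), which encodes the activin A subunit that follistatin binds, was at 17.8, 90.2 and 36.9 CPM against 10.5, 6.97 and 10.6 CPM, a difference of 2.38 ± 0.63. For both genes GFP F was the highest library and GFP M2 the lowest of the high-Bdnf set, and the sets did not overlap. Calb1 (chr4:15881264-15908064), the calcium buffer calbindin of mature granule cells, went the other way, at 135, 67.8 and 93.9 CPM against 234, 212 and 201 CPM, a difference of -1.13 ± 0.23. The untreated range was 204 to 243 CPM, and of the low-Bdnf libraries only Fst M2 lay outside it, just below. In bulk tissue, fewer cells with Calb1 and less Calb1 RNA per cell cannot be told apart.

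**Figure D1:**
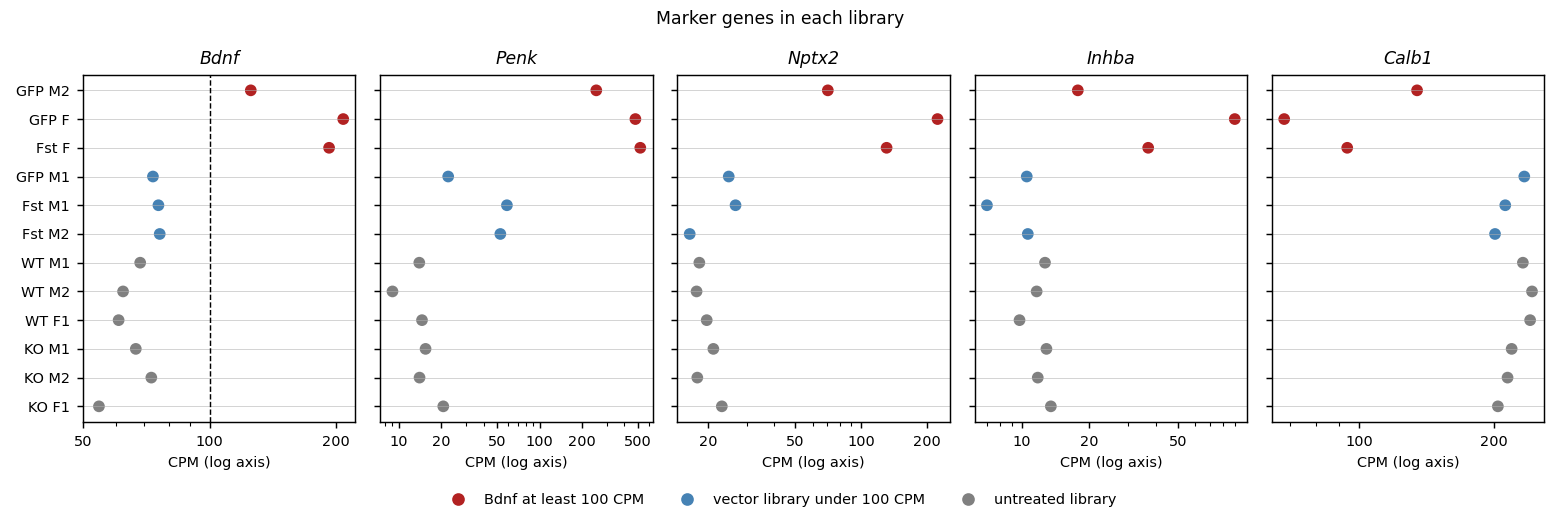
CPM of the 5 marker genes (log axis) in each of the 12 libraries, 1 point per library, with the dashed line at the Bdnf level of 100 CPM that defined the split. The 3 high-Bdnf libraries stand apart from the other 9 in all 5 panels, to the right for Bdnf, Penk, Nptx2 and Inhba and to the left for Calb1.

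The marker differences had the same sign within each vector and among males. Within the GFP vector group they were 4.01 for Penk, 2.55 for Nptx2, 2.35 for Inhba and -1.23 for Calb1 (log2). Within the Fst vector group they were 3.22, 2.58, 2.06 and -1.14 for the same genes. Among the 4 male libraries, where GFP M2 alone was high, they were smaller, at 2.51, 1.64, 0.94 and -0.68. With the vector as a term they were 3.59, 2.57, 2.20 and -1.19. Leaving out GFP F, the library farthest from the rest, gave 3.10, 2.13, 1.53 and -0.92.

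The markers were tested in 3 comparisons that did not use the Bdnf split. Across the 6 untreated libraries, with genotype as a term, the change per doubling of Bdnf was -1.09 for Penk (adjusted p = 0.555), -0.78 for Nptx2 (0.544), -0.13 for Inhba (0.967) and 0.09 for Calb1 (0.931) in edgeR's quasi-likelihood test. None of the 4 followed Bdnf there beyond the spread, over an untreated Bdnf range of only 54.6 to 72.7 CPM. Females differed from males in the untreated libraries by 0.44 for Penk (adjusted p = 0.241), 0.21 for Nptx2 (0.597), -0.07 for Inhba (0.935), -0.02 for Calb1 (0.952) and -0.21 for Bdnf (0.332) in the edgeR test. Between the Fst and GFP vectors, the edgeR differences were -0.28 ± 0.53 for Bdnf (adjusted p = 0.908), -0.30 ± 1.46 for Penk (0.968), -0.92 ± 1.18 for Nptx2 (0.856), -1.17 ± 1.08 for Inhba (0.795) and 0.18 ± 0.52 for Calb1 (0.945). The sets of genes past the threshold in these 3 comparisons made up 0.101% (15 of 14918), 0.449% (67 of 14919) and 0.0798% (12 of 15034) of the genes tested. With same-named libraries taken as pairs (the replicate block), a pairing that no label states, the last count was 141. The edgeR differences were then -0.30 ± 0.15 for Bdnf (adjusted p = 0.442), -0.30 ± 0.97 for Penk (0.929), -0.96 ± 0.45 for Nptx2 (0.458), -0.96 ± 0.17 for Inhba (0.0555) and 0.26 ± 0.15 for Calb1 (0.491), so 0 of the 5 passed. Inhba was lower in the Fst vector library of each of the 3 pairs.

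Across all genes, the edgeR fit placed 27 of 15034 genes (0.18%) past an adjusted p of 0.05, 22 higher (0.146%) and 5 lower (0.0333%) in the high-Bdnf libraries, and none of the 27 overlapped between the sets. Bdnf is 1 of the 22, and because the fit used the Bdnf split these calls only order the genes. The number was 70 with the vector as a term, 2 with sex as a term, and 0 with the replicate block or without Fst M1. With sex as a term, both female libraries being high, the contrast rests on GFP M2 against the low-Bdnf males. Of the 4 markers other than Bdnf, 0 passed in the main edgeR fit, beside 27 of all 15034 genes. In that fit 4 were under an unadjusted p of 0.05, beside 1941 of all genes, and 4 passed in DESeq2, beside 394. These fits used the Bdnf split and the markers were proposed with its values known, so these counts are no test of the markers. Non-overlap alone was common: 1445 genes (9.61%) were higher in all 3 high-Bdnf libraries than in all 3 low-Bdnf ones, and 1527 (10.2%) were lower. The untreated mean lay nearer the low-Bdnf than the high-Bdnf mean for 26 of the 26 genes past the threshold other than Bdnf. The same held for 60.9% of the non-overlapping higher genes and 41.3% of the lower ones.

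Sorcs1 (chr19:50143299-50678646), a sorting receptor for neuronal membrane proteins, was at 14.9, 43.1 and 39.5 CPM in GFP M2, GFP F and Fst F against 1.86, 1.87 and 3.04 CPM in GFP M1, Fst M1 and Fst M2, a difference of 3.84 ± 0.46. It had the largest difference among genes past the threshold with a mean of 5 CPM or more. Rprm (chr2:54084093-54085552), a p53-linked inhibitor of the cell cycle, was the most abundant of them, at 305, 305 and 212 CPM against 48.8, 61.3 and 49.8 CPM. Its difference was 2.37 ± 0.18, and GFP M2 and GFP F were almost equal. Grp (chr18:65872820-65886596), the gastrin-releasing peptide, was at 108, 166 and 139.6 CPM against 25.2, 38.3 and 31.8 CPM, a difference of 2.12 ± 0.20. Igfbp6 (chr15:102144362-102149511), which binds insulin-like growth factor, was at 48.99, 67.2 and 44.3 CPM against 7.92, 14.3 and 7.19 CPM, a difference of 2.44 ± 0.29. For each of these genes, Sorcs1 included, the high-Bdnf libraries lay well above the low-Bdnf ones in both vectors.

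Pappa (chr4:65124174-65357509), a secreted protease, was at 13.6, 18.7 and 8.41 CPM against 0.99, 1.47 and 1.92 CPM, a difference of 3.20 ± 0.37. Sema3a (chr5:13125414-13602565), a secreted axon guidance cue, was at 6.82, 15.2 and 8.97 CPM against 0.371, 0.884 and 1.22 CPM, a difference of 3.61 ± 0.44. Both were close to the floor in the low-Bdnf libraries, where Sema3a stood at 3 to 12 counts. Unc5d (chr8:28646717-29219636), a netrin receptor, differed by 1.43 ± 0.20, and the adhesion proteins Cdh7 (chr1:109982431-110140157) and Pcdh7 (chr5:57717967-58133230) by 2.48 ± 0.31 and 1.34 ± 0.18. Abca4, a lipid transporter known from the retina, differed by 2.03 ± 0.24 and Rassf8, a Ras-association domain protein, by 1.53 ± 0.18. Actl10 differed by 1.65 ± 0.25, but it lies within Necab3 on the opposite strand, itself at a mean of 116 CPM against 39.1 CPM, and without strand their reads cannot be told apart.

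The 5 genes past the threshold in the lower direction included the thyroid hormone binding protein Crym (chr7:120186380-120202111), at 80.4, 72.6 and 88.3 CPM in GFP M2, GFP F and Fst F against 165, 218 and 191 CPM in the low-Bdnf libraries, a difference of -1.25 ± 0.13. Kcnf1 (chr12:17172100-17176888), a silent potassium channel subunit that modifies other channels, was at 25.6, 16.98 and 19.2 CPM against 48.8, 45.8 and 68.1 CPM, a difference of -1.39 ± 0.20. Itga7 (chr10:128933818-128958282), a laminin-binding integrin, was at 22.1, 23.9 and 22.6 CPM against 76.96, 60.5 and 45.97 CPM, and its 3 high-Bdnf libraries were nearly equal. Ccbe1, a secreted protein of lymphatic vessel growth, differed by -1.76 ± 0.27 and Begain, a partner of the postsynaptic scaffold PSD-95, by -0.94 ± 0.14.

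**Figure D2:**
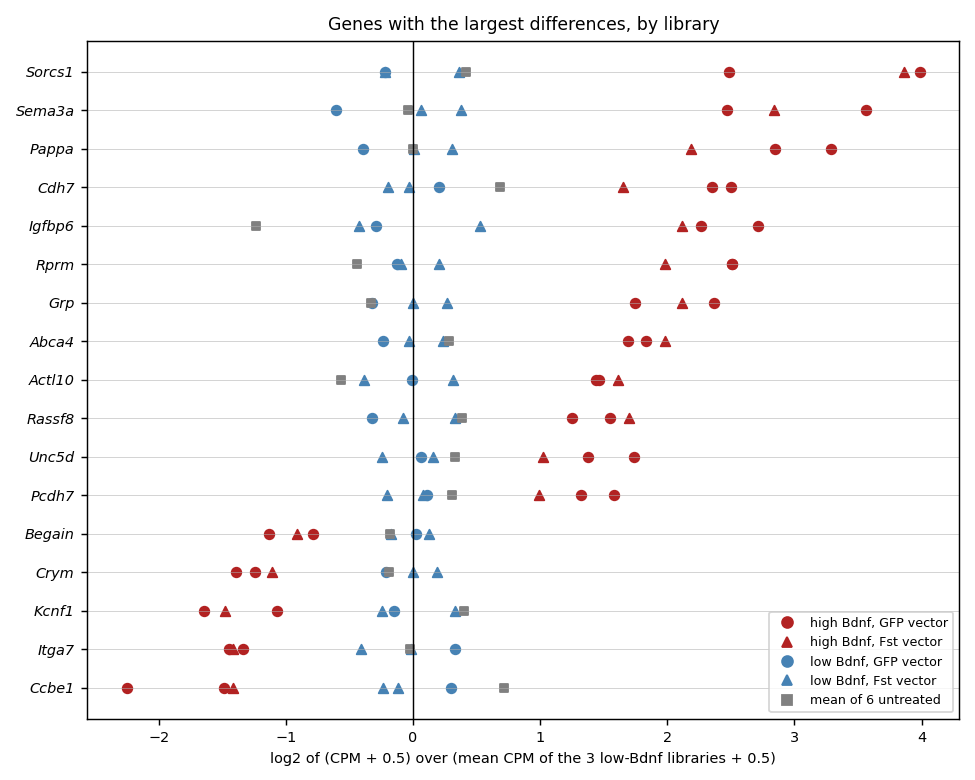
For the 17 named genes with the largest differences, log2 of CPM plus 0.5 over the low-Bdnf mean plus 0.5 (horizontal axis), for each vector library (circles GFP vector, triangles Fst vector) and the untreated mean (squares). For every gene the red high-Bdnf points lie on 1 side of the blue low-Bdnf points, in both vectors.

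Of 30 secreted genes linked to activity, 27 passed the filter on low counts. Without Bdnf, 10 of 26 were higher without overlap and 2 lower, beside 9.61% and 10.2% of all genes. The median log2 difference was 0.50 beside -0.01 over all genes tested. It was 0.56 with the vector as a term, 0.37 without GFP F and 0.21 among males. The 10 and the median include Penk, Nptx2 and Inhba, proposed as markers of the split with their values known, so neither is a test of the list. Beyond these 3 markers, the higher members included Scg2, a granin of secretory vesicles, at 402, 522 and 449 CPM against 239.9, 325 and 331 CPM. Ptgs2, the inducible cyclooxygenase, was at 43.9, 60.96 and 18.3 CPM against 14.8, 9.13 and 6.08 CPM and the semaphorin Sema3e at 42.6, 130.4 and 50.3 CPM against 10.1, 9.72 and 22.2 CPM. The 2 lower ones were the growth factors Ntf3, at 16.2, 2.67 and 17.9 CPM against 23.9, 38.00 and 32.3 CPM, and Tgfb2, at 33.4, 42.4 and 34.2 CPM against 66.8, 53.4 and 50.02 CPM.

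Of 42 immediate-early genes, 6 were higher without overlap and 9 lower, beside 9.61% and 10.2% of all genes. The median was -0.02, and it was -0.06 with the vector as a term, -0.07 without GFP F and 0.02 without GFP M2. Fos, the textbook mark of recent activity, was at 1.85, 4.96 and 2.21 CPM in the high-Bdnf libraries and 5.82, 5.60 and 6.38 CPM in the low-Bdnf ones. Jun was at 325, 185 and 250.2 CPM against 414, 556 and 508 CPM, Egr4 at 17.5, 11.9 and 16.8 CPM against 33.7, 32.99 and 28.4 CPM and Nr4a1 at 12.95, 12.5 and 13.1 CPM against 20.05, 22.5 and 19.2 CPM. These 4 transcription factors were thus lower in each high-Bdnf library than in any low-Bdnf one. Npas4, at 1.95, 1.14 and 2.77 CPM against 2.60, 4.81 and 6.18 CPM, and Egr1, at 15.3, 35.01 and 24.9 CPM against 30.6, 44.2 and 45.1 CPM, overlapped. Arc, whose protein acts at synapses, was high in GFP F and Fst F and low in GFP M2, at 15.7, 100.4 and 64.7 CPM against 23.6, 30.5 and 26.4 CPM. The higher members included Fosl2, at 74.99, 189 and 115 CPM against 60.6, 39.1 and 61.1 CPM, and the kinase Plk2, at 171, 234 and 206 CPM against 119, 117 and 113 CPM. The fast genes thus differed in both directions. The split had been called hyperactivity-like with the values of Bdnf and the markers known, so their levels are no check of that name.

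**Figure D3:**
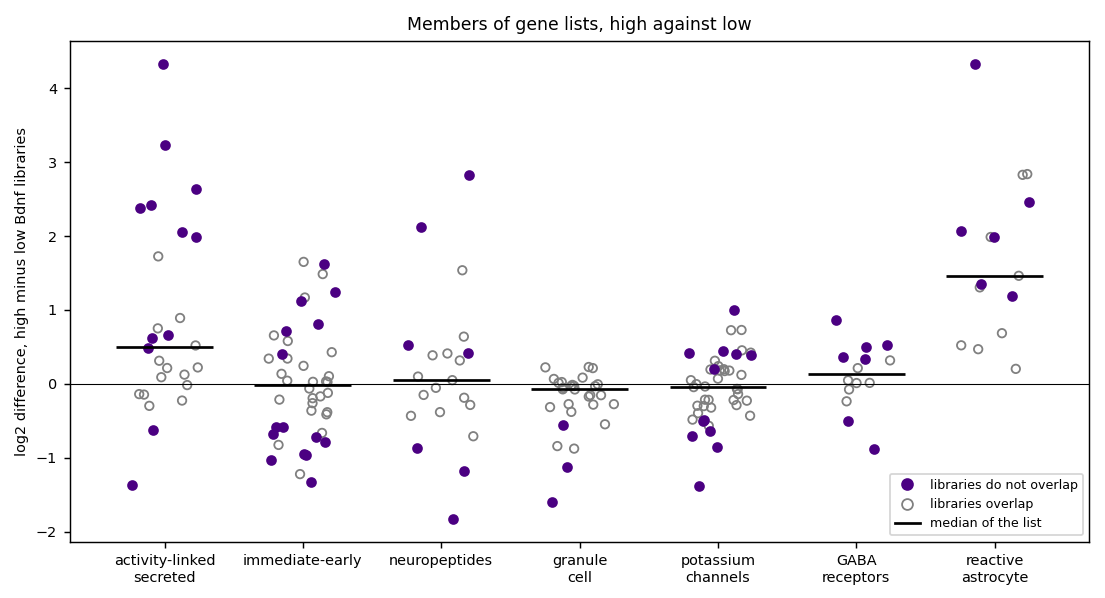
Log2 difference between the high-Bdnf and low-Bdnf libraries (vertical axis) for the tested members of 7 gene lists, 1 point per gene, with a line at each list's median and Bdnf left out. Filled points are genes whose libraries do not overlap between the sets. The secreted list, the markers Penk, Nptx2 and Inhba included, has its median at 0.50 and the immediate-early list at -0.02. All 15 reactive astrocyte genes lie above 0.

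Neuropeptides as a list leaned in neither direction, with 11 of 21 tested genes above 0 in log2 difference and 10 below. Of 25 listed, 21 were tested, 4 were higher without overlap (Gal, Crh, Chgb and Grp) and 3 lower (Cck, Cort and Nppc), beside 9.61% and 10.2% of all genes. Crh was low throughout, at 1.27, 1.34 and 1.11 CPM against 0.99, 0.98 and 0.61 CPM, and Nppc was at the floor in GFP F, at 0.286 CPM. The median was 0.05, and it was -0.10 without GFP F and -0.02 without GFP M2. Cck, cholecystokinin, was at 91.3, 72.3 and 81.4 CPM against 174, 153 and 121 CPM and Cort, cortistatin, at 4.48, 1.34 and 4.43 CPM against 6.68, 16.1 and 13.5 CPM. Npy, a peptide that granule cells make after seizures, was at 106, 214 and 53.03 CPM against 33.5, 56.3 and 39.7 CPM, with Fst F below Fst M1. Pdyn, the dynorphin precursor of granule cells, was at 35.1, 42.3 and 32.7 CPM against 50.1, 33.98 and 30.4 CPM, so of the opioid precursors Penk differed and Pdyn overlapped.

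Receptors and channels of the granule cell differed gene by gene. Drd1, a dopamine receptor, was at 35.8, 58.6 and 54.5 CPM in GFP M2, GFP F and Fst F against 5.82, 13.9 and 12.4 CPM in the low-Bdnf libraries, a difference of 2.21 ± 0.32, beside 3.79 to 7.63 CPM untreated. It is also a striatal marker. The summed level of the 15-gene striatum list, which contains Drd1 itself, overlapped, at 225 to 232 CPM in the high-Bdnf and 206 to 242 CPM in the low-Bdnf libraries. Of its 10 tested genes, 1 (Drd1) was higher without overlap and 1 (Ppp1r1b) lower, beside 9.61% and 10.2% of all genes. Of 14 GABA receptor genes, 5 were higher without overlap and 2 lower. Gabrd, of the extrasynaptic receptor, was 1 of the lower ones, at 52.5, 19.7 and 78.7 CPM against 78.8, 116 and 81.2 CPM. Of 28 glutamate receptor and pentraxin genes, 5 were higher, the marker Nptx2 among them, and 2 lower. Of 44 potassium channel genes 6 were higher and 6 lower, each beside the 9.61% and 10.2% of all genes. Kcnip3, a calcium-binding channel partner that is also a transcriptional repressor, was at 185, 292 and 170.2 CPM against 115, 113 and 97.2 CPM, while its relative Kcnip2 was at 245, 169 and 297 CPM against 370.2, 423 and 370.1 CPM.

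The activin pathway, which follistatin acts on, had 18 tested members of 20, with 4 higher without overlap, the marker Inhba among them, and 0 lower, beside 9.61% and 10.2% of all genes. The median was 0.22, 0.12 with the vector as a term and 0.11 without GFP F. The activin receptor Acvr1c was at 82.8, 172 and 44.8 CPM against 40.1, 20.03 and 15.1 CPM, the receptor Acvr1 at 67.6, 126 and 51.4 CPM against 48.01, 38.7 and 34.6 CPM and the signal carrier Smad3 at 277, 337 and 316 CPM against 219, 233 and 259.6 CPM. For both receptors GFP F was the highest library, and Fst F lay only slightly above GFP M1. Among the 14 tested genes of the Bdnf pathway other than Bdnf, 1 (Sorcs1) was higher without overlap and 2 (Crtc2 and Rasgrf1) were lower, beside 9.61% and 10.2% of all genes. Ntrk2, which encodes TrkB, was at 392, 403 and 411 CPM against 362, 377 and 478 CPM and overlapped.

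Of the 29 genes of the mature granule cell list, 22 were below 0 in log2 difference, 0 were higher without overlap and 3 lower, which were Calb1, the kinase Itpka at 250.5, 144 and 254 CPM against 331, 363 and 258 CPM, and the enzyme Tdo2 at 8.47, 1.05 and 2.88 CPM against 18.3, 9.53 and 9.92 CPM. The lower share is beside 10.2% of all genes, and the genes below 0 are beside 7647 of 15033 over all genes. The list's median was -0.08, -0.18 with the vector as a term, -0.19 without GFP M2, -0.05 without GFP F and -0.07 without Fst F. Among males the sign changed, with a median of 0.03 and 16 of 29 genes above 0. Among calcium genes, the store release channel Itpr1 was at 74.8, 45.2 and 90.4 CPM against 205, 118 and 148 CPM and the calcium channel Cacna1i at 31.7, 19.7 and 31.7 CPM against 55.2, 45.9 and 66.7 CPM, both lower in each high-Bdnf library. Of the 12 tested newborn neuron genes 4 were higher without overlap and 0 lower, beside 9.61% and 10.2% of all genes, while 6 were below 0. Their median was 0.06, and it was -0.11 without GFP F. The higher ones included Sox11, a factor of immature neurons, at 71.9, 113 and 71.4 CPM against 44.3, 42.9 and 41.01 CPM, while Dcx, at 19.7, 15.7 and 35.1 CPM against 9.90, 16.2 and 26.1 CPM, overlapped.

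The high-Bdnf libraries also held more RNA of genes of reactive astrocytes, the state of these glia after injury. Of 17 listed, 15 were tested, and 6 were higher without overlap and 0 lower, beside 9.61% and 10.2% of all genes. The list's median was 1.46. Gfap, their filament protein, was at 1555, 4864 and 1033 CPM in GFP M2, GFP F and Fst F, at 566, 613 and 620.0 CPM in the low-Bdnf libraries and at 369.8 to 464 CPM untreated. The list's summed level was 1239 to 6225 CPM in the high-Bdnf, 735 to 807 CPM in the low-Bdnf and 507 to 586 CPM in the untreated libraries. This sum contains Gfap, which made up most of it, so it mainly repeats the Gfap difference. GFP F was far above the rest: without it the median was 0.37, with 12 of 15 genes above 0, and Serpina3n, at 128, 575 and 33.9 CPM against 54.9, 24.7 and 24.3 CPM, was below GFP M1 in Fst F. The part of reactive glia in the differences of the neuronal genes was not tested. The interferon and antigen presentation list had 17 of 18 tested genes above 0 and a median of 0.40, which was -0.15 without GFP F. Its summed level was 242 to 573 CPM in the high-Bdnf and 270 to 272 CPM in the low-Bdnf libraries, so only GFP F exceeded the low-Bdnf range, and all 6 exceeded the untreated range of 154 to 195 CPM.

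**Figure D4:**
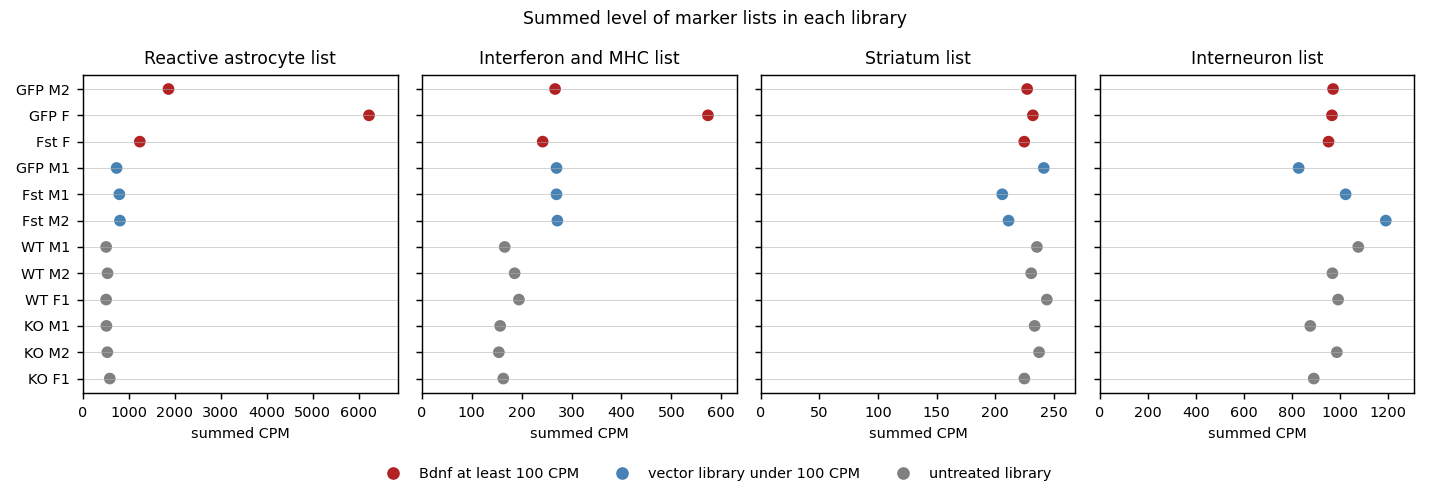
Summed CPM of 4 marker lists (horizontal axes, from 0) in each of the 12 libraries. The reactive astrocyte list, whose sum is mostly Gfap, is highest in the 3 high-Bdnf libraries and above all in GFP F. The interferon list is highest in GFP F and above the untreated range of 154 to 195 CPM in all 6 vector libraries. The striatum and interneuron lists overlap between the sets.

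Marker lists of other regions and cell types differed in places. The summed neocortex list was lower in the high-Bdnf libraries, at 349 to 417 CPM against 425 to 475 CPM, beside 371 to 401 CPM untreated. All 3 low-Bdnf libraries thus lay above the untreated range, which the high-Bdnf ones spanned. The cortical factor Tbr1 was at 45.00, 38.1 and 47.2 CPM against 74.98, 58.7 and 62.7 CPM. The part of cortical RNA in the other differences was not tested. The summed list of astrocyte genes was 5250.3 to 9082 CPM against 4147 to 4895 CPM, but this sum contains Gfap, whose large difference is given above. The list's median was only 0.08, with 7 of 12 genes above 0. Of the 12, 3 were higher without overlap (Aqp4, Slc1a2 and Gfap) and 0 lower, beside 9.61% and 10.2% of all genes. Of 18 interneuron genes 0 were higher and 4 lower without overlap, beside 9.61% and 10.2% of all genes, while the list's summed level overlapped. Of 10 tested meningeal genes 3 were higher without overlap (Col1a1, Col1a2 and Aldh1a2) and 0 lower, beside 9.61% and 10.2% of all genes. The list's summed level was low and overlapped, at 47.7 to 89.0 CPM against 31.1 to 49.1 CPM. Col1a1 was at 6.33, 19.9 and 6.42 CPM against 3.46, 3.24 and 2.53 CPM. Genes that heat or dissection can raise had 1 higher member without overlap of 14 and 0 lower, and glucocorticoid-responsive genes 2 higher and 1 lower of 15, beside the same shares of all genes.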

How the data were processed

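The deposited tables hold raw counts of reads per Ensembl gene, as the authors made them and per the file headers, with WT and KO in one and both vector groups in the other. Per the submitters' processing notes the genome was GRCm38. No label or header used here names the aligner, the counting tool or the strand setting. There were 52636 genes in each, and 12 and 6 lines naming no gene, with 0 counts, were left out. Symbols and coordinates came from GENCODE and matched 52403 IDs.

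CPM is the count over the library total. High and low were set by Bdnf at 100 CPM in the vector table. The members and lists were chosen with earlier results of these data known. Fits used edgeR 4.0.16 (R 4.3.3) with TMM, filterByExpr, the robust quasi-likelihood test and Benjamini-Hochberg adjustment at 0.05. DESeq2 1.42.0 was an alternative. The SE is the log2 difference over the square root of F. The fitting code was tested on simulated data. Besides the markers, named genes were up to 12 with the largest difference in each direction past the threshold, without overlap and with a mean of 5 CPM or more, the list members with the smallest p, and the 5 smallest p in each direction of the untreated slope. Other list members, such as Fos, Arc and Npy, were named after their values were seen. Vector replicate names are shared. Deviations of same-named GFP and Fst libraries correlated at 0.336 (M1), 0.160 (M2) and 0.421 (F), all above 0.1, so the names were taken to pair them, from the data alone. That bar did not single them out, since GFP M1 with Fst M2 reached 0.140. Both F libraries share sex and the high-Bdnf set, and both M1 libraries the low-Bdnf set, so pairing cannot be told apart from these. Counting floors cover counting error only. Some results are not reported here.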

Additional observations from a re-analysis of the deposited data

Results flagged for a closer look

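Of the 146 genes chosen by the naming rule, 7 (4.79%) had every high-Bdnf library on 1 side of the low-Bdnf libraries within the GFP vector group and on the opposite side within the Fst vector group. Over all 15034 genes tested, 1821 (12.1%) did so. The difference between the vectors was not tested, and each vector group has only 3 libraries. The log2 difference, high minus low, was 0.42 within the GFP and -1.02 within the Fst vector group for the dopamine receptor Drd2. It was 0.93 and -0.62 for the tachykinin precursor Tac1, 0.57 and -0.32 for the microglial gene Tmem119, and 2.17 and -1.89 for transthyretin, Ttr. For the heat shock gene Hspa1b it was 0.30 and -0.59, for calretinin, Calb2, 0.43 and -0.54, and for the peptide precursor Adcyap1 0.70 and -0.51.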

How the results depend on the processing

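All 27 genes past the threshold between the high-Bdnf and low-Bdnf libraries kept their sign in every alternative that tested them, but their number moved. It was 70 with the vector as a term (26 of the 27 shared), 66 with the ribosomal RNA share as a term, 107 with log2 Bdnf as a continuous term, 394 in DESeq2 and 954 with no low count filter. It was 2 with sex as a term, 3 within the Fst vector group, 10 with a mean CPM of at least 5 and 11 when a change beyond 1.2 fold was tested. With the replicate block it was 0, where the contrast rests on GFP M2 against Fst M2 and vector and state cannot be told apart. Among males and within a vector 1 set holds a single library, which is assumed to vary like the rest. The same holds with sex as a term, where both female libraries are high and the contrast rests on GFP M2 against the low-Bdnf males. Leaving out 1 library gave 0 (without Fst M1) to 64 (without GFP M2). The untreated slope on Bdnf called 15 genes, 0 with no genotype term, 95 with no filter, 77 with the ribosomal RNA term and 1 to 18 when 1 library was left out. Female against male called 67, 27 with no genotype term, 34 in DESeq2, 106 with the ribosomal RNA term and 20 to 72 when 1 library was left out. Fst against GFP vector called 12, 141 with the replicate block, 64 with the Bdnf state as a term, 250 in DESeq2, 230 with no filter and 1 to 29 when 1 library was left out. For the 22 named genes, 236 values under these alternatives stayed on their side of the threshold, 163 were no longer past it, 18 were newly past it and 0 changed sign. Sema3a, at 3 counts in GFP M1, was at the floor there.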

Other observations

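Across the 6 untreated libraries, where Bdnf was not selected, edgeR's quasi-likelihood test called 3 genes that went up and 12 that went down with Bdnf, 0.101% of 14918. Those with the smallest p were Gpcpd1, a phosphodiesterase of lipid metabolism, at 1.29 ± 0.22 per log2 of Bdnf (edgeR adjusted p = 0.00887), Calb2 at 1.49 ± 0.27 (edgeR adjusted p = 0.0137), and in the other direction Pacsin2, a membrane-bending protein, at -1.32 ± 0.20 (edgeR adjusted p = 0.00404) and the synaptic vesicle protein Sv2c at -1.20 ± 0.21 (edgeR adjusted p = 0.00887). In the vector libraries the log2 differences of these 4 genes, high minus low, were 0.23, -0.24, 0.13 and 1.23, and their libraries overlapped between the sets.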
